A study of Mus musculus with 9 samples.

Results

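The WNT module measured here consists of the probesets annotated to 1 gene symbol that names a WNT ligand (Wnt), a frizzled receptor (Fzd), a secreted frizzled-related protein (Sfrp), a Dickkopf protein (Dkk) or an R-spondin (Rspo), together with a fixed set of co-receptors, modulators and effectors. This choice by symbol gave 125 of the 45037 probesets tested and 60 of the 18193 genes with a probeset of their own. Tcf7 and Sfrp3 are among the names and had no probeset under that symbol. Fzd10os, an RNA from the strand opposite Fzd10 that encodes no receptor, entered through its letter suffix. Expression was measured on Affymetrix Mouse Genome arrays in 3 lines derived from Balb/c-3T3, an established mouse fibroblast line, grown in medium with 10% bovine calf serum. Control cells were the parental Balb/c-3T3 line. v-Src cells were Balb/c-3T3 stably transfected with pMvSrc, which encodes the viral tyrosine kinase v-Src, and STAT3-C cells were Balb/c-3T3 stably transfected with pRc/CMV-STAT3C, which encodes a constitutively active mutant of the transcription factor STAT3 under a cytomegalovirus promoter. Each line has 3 arrays, each from RNA pooled from 5 dishes of 1 passage, so that p-values reflect variation among passages of 1 stable line and not among independent transfectants. Arrays are named by their numbers in the deposited titles, which run 1, 2 and 3 in the control and STAT3-C lines and 1, 5 and 6 in the v-Src line.

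WNT ligands are lipid-modified secreted proteins that bind frizzled receptors and the co-receptors LRP5 and LRP6 or ROR1 and ROR2. In the canonical branch, receptor engagement stops a cytoplasmic complex of Axin, APC and GSK3 from marking beta-catenin for degradation, and beta-catenin then activates genes with factors of the TCF/LEF family. SFRP, WIF1 and DKK proteins restrain the pathway outside the cell, whereas R-spondins strengthen it through LGR receptors. Fibroblasts both send and receive such signals.

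Values are log2 expression after Robust Multichip Average (RMA). The median and lower quartile of the arrays serve as a guide to level, since the levels of different probesets cannot be set against each other: the array median was 6.33 in control, 6.39 in v-Src and 6.34 in STAT3-C cells, and the lower quartile 5.14, 5.14 and 5.09. Where a mean lies under its quartile, background limits the difference, whose size is then a lower bound. Calls of higher or lower needed a fold of at least 1.5 and an adjusted p under 0.05 (limma, Benjamini-Hochberg over all 45037 probesets). Standard errors are those of limma over 3 arrays a line. With 3 arrays in each of 2 groups, the smallest p of an exact permutation test is 0.1. Arrays of 1 line correlated at 0.990 to 0.995 across probesets (Pearson), and arrays of different lines at 0.943 to 0.977. Genes are not independent replicates.

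Stat3 and Src were examined first as a check of the labels. The Stat3 probeset 1460700_at rose in both transfected lines, by 1.30 (SE 0.14) in v-Src and 0.72 (SE 0.15) in STAT3-C cells on the log2 scale. A further Stat3 probeset, 1426587_a_at, rose by 1.53 (SE 0.16) in v-Src cells and differed by 0.24 (SE 0.15) in STAT3-C cells without a call. The remaining Stat3 probesets were uncalled in both lines, at 0.28 and 0.11 (1424272_at) and 0.54 and 0.21 (1459961_a_at) in v-Src and STAT3-C cells. Both probesets of the mouse Src gene were uncalled in either line, and whether they can detect the viral sequence, or the Stat3 probesets the transfected one, was not examined. Fibroblast markers lay above the array median for 8 of 8 genes in control, 6 of 8 in v-Src and 7 of 8 in STAT3-C cells. In v-Src cells 5 of the 8 fell and 1 rose, where 10.4% and 9.54% of all genes did by 1 probeset a gene. In STAT3-C cells 5 fell, where 10.3% of all genes did. Fn1, fibronectin, rose by 1.13 in v-Src cells, and Vim, vimentin, was uncalled at 0.01 and -0.25. Thy1, a surface glycoprotein of fibroblasts, fell below the array median in both transfected lines, with log2 differences from control of -5.17 and -5.18. Pdgfrb, the receptor of platelet-derived growth factor B, fell below it in v-Src cells, with a difference of -5.06, and stayed above it in STAT3-C cells at -1.93. The linear levels of 6 macrophage and leukocyte markers were summed on each array. The log2 of this sum ranged from 9.48 to 9.53 on control, 10.66 to 10.97 on v-Src and 10.77 to 11.26 on STAT3-C arrays. In each of the 3 lines 4 of these 6 markers lay above the array median, with Ptprc and Itgam below it. Csf1r was uncalled in either line, at 0.32 and -0.18. The called members were Cd14, a lipopolysaccharide co-receptor, with 2.12 and 2.12, Lyz2, a lysozyme, with 0.86 and 1.95, and in STAT3-C cells Cd68, with 1.14. Cd14, with means of 8.13 in control, 10.26 in v-Src and 10.25 in STAT3-C cells, was the highest term of the sum in both transfected lines. No epithelial or endothelial marker was called in either line against control, with log2 differences between -0.55 and 0.54. In each of the 3 lines 4 of 7 epithelial and 1 of 5 endothelial markers lay above the array median. In such bulk RNA, fewer cells of a type and less RNA per cell cannot be told apart, and the part of these marker shifts in the WNT results was not tested.

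Genes of the WNT module fell more often than they rose in both transfected lines. In v-Src cells 28 of the 125 probesets (22.4%) were lower than in control, where 8.1% of all probesets were, and 9 (7.2%) were higher, where 8.75% of all probesets were. In STAT3-C cells 22 (17.6%) were lower against 8.58% of all probesets, and 4 (3.2%) were higher against 9.68%. The called probesets belong to 18 lower and 6 higher genes in v-Src cells and to 14 lower and 4 higher genes in STAT3-C cells, with Gsk3b counted both ways in v-Src cells. Of all genes, 13.4% had a lower and 13.7% a higher probeset in v-Src cells, and 13.7% and 16.1% in STAT3-C cells. With 1 probeset a gene the share of lower genes in STAT3-C cells was nearer to that of all genes, as described with the probesets of each gene. The median log2 difference of the 125 probesets stayed near 0, at 0.01 in v-Src and -0.01 in STAT3-C cells, beside 0.03 and 0.02 over all probesets, so the lower calls come from a subset with large differences and not from a shift of the whole module. The 3 arrays of a line did not overlap with the control arrays for 61 member probesets (48.8%, against 44% of all probesets) in v-Src and 54 (43.2%, against 43.4%) in STAT3-C cells, shares close to those of all probesets.

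**Figure D1:**
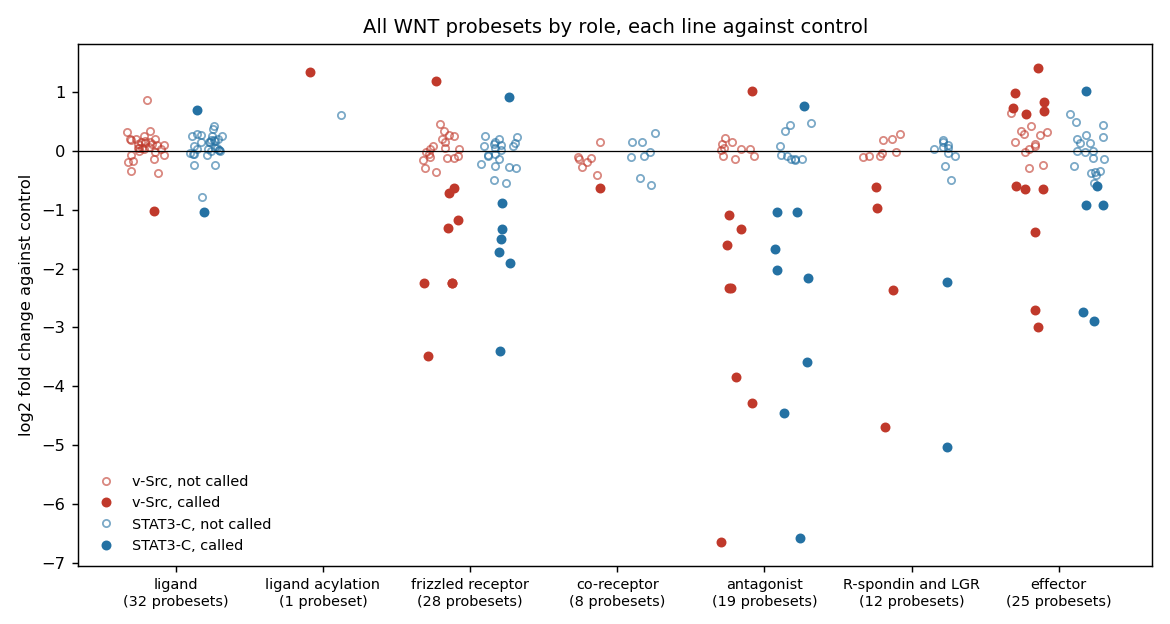
Log2 difference from control of each of the 125 WNT probesets (vertical axis) in v-Src (red) and STAT3-C (blue) cells, grouped by role, with filled points for called and open points for uncalled probesets. The lowest points are Sfrp2 among the antagonists (-6.65 and -6.59) and Rspo2 among the R-spondins (-4.70 and -5.04), and most ligands lie near 0.

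Both comparisons share the 3 control arrays, so their values are given side by side and the agreement between them is not counted as a result. Called lower in both lines were 21 probesets (16.8%, against 5.37% of all probesets) of 13 genes: Sfrp1, Sfrp2, Dkk2, Dkk3, Rspo2, Lgr5, Fzd1, Fzd2, Fzd7, Fzd10, Wnt6, Tcf7l1 and Tcf7l2. Called higher in both were 2 probesets (1.6%, against 5.17%), of Fzd8 and Kremen1. A further 13 probesets were called in v-Src cells only and 2, of Apc and Wnt7a, in STAT3-C cells only, which does not show that the lines differ there. The direct comparison of the lines, given further on, tests that. By 1 probeset of Gsk3b the lines were called in opposite directions, and 86 probesets (68.8%) were called in neither line. Shares of all probesets were not computed for the counts of 1 line only, opposite directions and neither line, which are not read as a result. Called in either direction were 29.6% of the member probesets in v-Src and 20.8% in STAT3-C cells, against 16.8% and 18.3% of all probesets. The plot of levels by array shows 1 probeset of each gene that changed the same way in both lines.

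**Figure D2:**
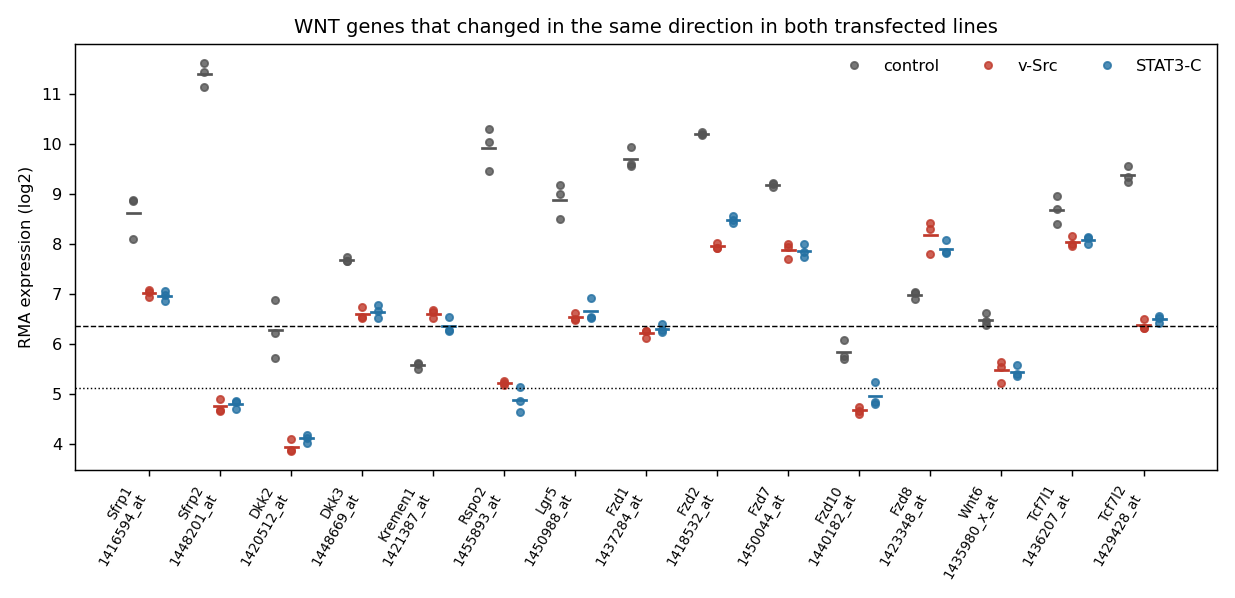
RMA log2 level on each array (points) and mean of each line (bars) for 1 probeset of each WNT gene that was called in the same direction in both transfected lines. The dashed and dotted lines mark the mean of the array medians and of the lower quartiles. For every gene shown, the v-Src and STAT3-C arrays lie on the same side of the control arrays and do not overlap with them.

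Among the antagonists, counted with the receptor Kremen1, 10 genes with 19 probesets were measured. In each line 8 of these probesets fell, 4 of them of Sfrp1, and 1, of Kremen1, rose. The lower share was 42.1%, against 8.1% of all probesets in v-Src and 8.58% in STAT3-C cells. The higher share was 5.26%, against 8.75% and 9.68%. Sfrp2, a secreted decoy with a frizzled-like domain, had the lowest difference of the module. The control arrays read 11.44, 11.14 and 11.61 for Sfrp2 (1448201_at), the v-Src arrays 4.90, 4.67 and 4.69, and the STAT3-C arrays 4.71, 4.85 and 4.87 on the log2 scale. It thus went from far above the array median to below the lower quartile on every array of both transfected lines. The log2 difference was -6.65 (SE 0.13, adjusted p = 6.12e-07, limma) in v-Src and -6.59 (SE 0.13, adjusted p = 8.75e-08) in STAT3-C cells, both lower bounds in size because the transfected lines lie below the quartile. The lines differed from each other by -0.06 between levels that are both near background.

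Sfrp1, its close relative, was measured by 5 probesets, of which 4 fell in both lines. Its probeset 1460187_at read 7.61, 8.28 and 8.46 on the control arrays, 3.89, 3.76 and 3.85 on the v-Src arrays and 3.53, 3.84 and 3.64 on the STAT3-C arrays. The log2 differences were -4.28 (SE 0.20) and -4.45 (SE 0.21), again to levels below the lower quartile. The other called probesets differed by -3.84 and -3.59 (1448395_at), -2.32 and -2.02 (1428136_at), and -1.60 and -1.66 (1416594_at) in v-Src and STAT3-C cells. The probeset 1438620_x_at did not move with them, at 0.05 (SE 0.10) and -0.14 (SE 0.10). An x in such a name marks probes that may bind other transcripts, so this probeset is uncertain as a measure of Sfrp1. Sfrp4 and Sfrp5 were uncalled in both lines, with log2 differences between -0.13 and 0.44.

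Dkk2, a Dickkopf protein that binds LRP co-receptors, read 6.87, 6.22 and 5.73 on the control arrays, 4.10, 3.86 and 3.88 on the v-Src arrays and 4.03, 4.12 and 4.19 on the STAT3-C arrays. Its control arrays spread widely, yet the lowest of them lay above every transfected array. The log2 difference was -2.33 (SE 0.26, adjusted p = 0.000717, limma) in v-Src and -2.16 (SE 0.25, adjusted p = 0.000407) in STAT3-C cells, with the control mean itself close to the array median. Dkk3, a divergent member of the same family, fell in both lines, with differences of -1.33 and -1.08 in v-Src and -1.03 and -1.03 in STAT3-C cells by its probesets 1417312_at and 1448669_at. Dkk1 and Dkk4 lay below the array lower quartile in all 3 lines and were uncalled, as was Wif1, a secreted WNT-binding inhibitor. Kremen1, a receptor that removes LRP6 from the surface together with Dickkopf proteins, rose by probeset 1421387_at from 5.51, 5.61 and 5.63 on the control arrays to 6.63, 6.51 and 6.68 on the v-Src and 6.27, 6.26 and 6.54 on the STAT3-C arrays. These are log2 differences of 1.02 (SE 0.08) and 0.77 (SE 0.11), with no overlap with control. Its other probesets, 1435472_at and 1445252_at, were uncalled, at 0.23 and 0.02 in v-Src and 0.48 and -0.15 in STAT3-C cells.

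Of the R-spondins and their LGR receptors, 7 genes with 12 probesets were measured. Rspo2, an agonist that strengthens WNT signaling at the receptor, read 10.29, 10.03 and 9.45 on the control arrays by probeset 1455893_at. The v-Src arrays read 5.19, 5.26 and 5.23 and the STAT3-C arrays 4.86, 4.65 and 5.14. Every transfected array lay near or below the lower quartile. These are log2 differences of -4.70 (SE 0.20, adjusted p = 1.15e-05, limma) in v-Src and -5.04 (SE 0.22, adjusted p = 3.89e-06) in STAT3-C cells. The second Rspo2 probeset, 1430104_at, differed by -0.02 and 0.19, so the fall rests on 1 probeset. Lgr5, an R-spondin receptor known as a stem cell marker, fell from 8.49, 9.0 and 9.17 on the control arrays to 6.48, 6.61 and 6.50 in v-Src and 6.53, 6.51 and 6.92 in STAT3-C cells by probeset 1450988_at. Its log2 differences were -2.36 (SE 0.17) and -2.23 (SE 0.19), whereas its other probeset, 1444519_at, differed by -0.03 and 0.07. Lgr4, a related receptor, fell by 0.96 (SE 0.11) in v-Src cells by probeset 1433891_at. In STAT3-C cells its difference of -0.49 (SE 0.09, adjusted p = 0.00489, limma) was under the fold threshold. Its other probeset, 1453765_at, was uncalled at 0.21 and 0.11. Rspo4 fell by 0.61 (SE 0.10) in v-Src cells from a control level below the array median, a call lost without v-Src array 1 or control array 1, when the difference was as small as -0.52. Rspo1, Rspo3 and Lgr6 were uncalled in both lines.

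Frizzled receptors bind the ligand at the cell surface, and the group, counted with Fzd10os, holds 11 genes with 28 probesets. In v-Src cells 8 of these probesets fell and 1 rose (28.6% and 3.57%, against 8.1% and 8.75% of all probesets). In STAT3-C cells 6 fell and 1 rose (21.4% and 3.57%, against 8.58% and 9.68%). Fzd2 supplied 3 of the lower probesets in each line. Fzd1 read 9.94, 9.60 and 9.56 on the control arrays by probeset 1437284_at, 6.26, 6.26 and 6.12 on the v-Src arrays and 6.39, 6.27 and 6.23 on the STAT3-C arrays. The differences were -3.48 (SE 0.12, adjusted p = 4.57e-06, limma) and -3.40 (SE 0.12, adjusted p = 1.37e-06) on the log2 scale, and the levels of all 3 lines lay above the lower quartile. Its probeset 1422985_at fell by 0.63 (SE 0.13) in v-Src cells and differed by -0.55 in STAT3-C cells without a call. The v-Src call was lost without control array 1, with -0.53.

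Fzd2 was measured by 3 probesets that all fell in both lines. Its probeset 1418533_s_at read 9.92, 9.89 and 9.92 on the control arrays, 7.78, 7.66 and 7.56 on the v-Src arrays and 8.44, 8.37 and 8.43 on the STAT3-C arrays. The 3 lines stood apart from each other, with v-Src lowest. The log2 differences from control were -2.24 (SE 0.08) and -1.50 (SE 0.08), and the direct difference of -0.75 (SE 0.08, adjusted p = 0.00149, limma) was called. The other Fzd2 probesets differed between the lines by -0.53 (1418532_at) and -0.35 (1418534_at), in the same direction and the former under the fold threshold and the latter at an adjusted p of 0.107 from limma. Fzd7 read 9.19, 9.21 and 9.14 in control, 7.99, 7.70 and 7.94 in v-Src and 7.83, 7.99 and 7.74 in STAT3-C cells by probeset 1450044_at, differences of -1.30 (SE 0.09) and -1.32 (SE 0.10). Its other probeset, 1450043_at, was uncalled at -0.15 and -0.29. Fzd10 fell from a control level below the array median, with -1.17 and -0.88 by probeset 1440182_at, while 1455689_at was uncalled at 0.15 and -0.08. Fzd5 fell by 0.72 (SE 0.13) in v-Src cells by probeset 1455604_at, against -0.49 in STAT3-C cells under the fold threshold, while 1422937_at was uncalled at -0.09 and 0.12.

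Fzd8 was the receptor that rose. It read 6.90, 7.02 and 7.03 on the control arrays, 8.42, 7.79 and 8.30 on the v-Src arrays and 7.83, 8.07 and 7.82 on the STAT3-C arrays by probeset 1423348_at. All 6 transfected arrays lay above the control arrays. Its rise on the log2 scale was 1.19 (SE 0.16, adjusted p = 0.00166, limma) in v-Src and 0.92 (SE 0.10, adjusted p = 0.000378) in STAT3-C cells. Its dim second probeset, 1445815_at, differed by 0.34 and 0.24 without a call. Fzd3, Fzd4, Fzd6, Fzd9 and Fzd10os were uncalled in both lines, with log2 differences between -0.36 and 0.46. Of the co-receptors, Lrp6 fell by 0.63 (SE 0.15, adjusted p = 0.019, limma) in v-Src cells by probeset 1428500_at and differed by -0.57 in STAT3-C cells, just under the fold threshold. The v-Src call was lost without v-Src array 5 (-0.47) or control array 1 (-0.56), and its second probeset, 1451022_at, was uncalled at 0.15 and -0.01. Lrp5, Ror1 and Ror2 were uncalled against control.

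The promoters of the members that fell furthest are shown as a description. Whether these members share a regulator was not tested. Of the 7 genes that fell by 2 or more on the log2 scale in both (Sfrp2, Sfrp1, Rspo2, Fzd1, Tcf7l2, Lgr5 and Dkk2), 4 have a window of 250 bases before the annotated start in RefSeq (build GRCm38.p6), with an upstream and an internal start for Tcf7l2. Sfrp2 lies at chr3:83766071-83766320 on the plus strand, Dkk2 at chr3:132085042-132085291 on the plus strand, Fzd1 at chr5:4758217-4758466 on the minus strand and Tcf7l2 at chr19:55741560-55741809 and chr19:55895071-55895320 on the plus strand. Each sequence runs 5′ to 3′ on the strand of the gene, and capitals mark a match to CTTTGA, the core letters of TCF/LEF sites, read here from the other strand as TCAAAG.
Sfrp2: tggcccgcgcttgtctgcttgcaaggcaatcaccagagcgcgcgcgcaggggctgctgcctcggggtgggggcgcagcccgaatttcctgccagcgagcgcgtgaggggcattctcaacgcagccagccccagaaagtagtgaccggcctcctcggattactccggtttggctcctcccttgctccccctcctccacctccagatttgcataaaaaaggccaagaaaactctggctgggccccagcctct
Dkk2: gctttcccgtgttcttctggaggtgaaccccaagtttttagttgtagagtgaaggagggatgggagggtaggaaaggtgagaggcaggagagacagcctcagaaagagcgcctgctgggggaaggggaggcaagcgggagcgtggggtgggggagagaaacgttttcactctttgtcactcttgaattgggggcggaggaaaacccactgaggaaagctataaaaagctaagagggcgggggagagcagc
Fzd1: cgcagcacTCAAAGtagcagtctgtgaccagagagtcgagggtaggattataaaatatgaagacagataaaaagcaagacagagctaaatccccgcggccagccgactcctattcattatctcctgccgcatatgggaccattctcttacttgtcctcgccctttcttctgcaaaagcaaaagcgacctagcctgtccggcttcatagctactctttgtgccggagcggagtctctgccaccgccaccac
Tcf7l2, upstream start: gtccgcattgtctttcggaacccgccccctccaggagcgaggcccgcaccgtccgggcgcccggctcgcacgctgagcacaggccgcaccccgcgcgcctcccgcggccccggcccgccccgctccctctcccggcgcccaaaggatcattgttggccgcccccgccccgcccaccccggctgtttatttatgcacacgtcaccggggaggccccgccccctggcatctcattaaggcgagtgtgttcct
Tcf7l2, internal start: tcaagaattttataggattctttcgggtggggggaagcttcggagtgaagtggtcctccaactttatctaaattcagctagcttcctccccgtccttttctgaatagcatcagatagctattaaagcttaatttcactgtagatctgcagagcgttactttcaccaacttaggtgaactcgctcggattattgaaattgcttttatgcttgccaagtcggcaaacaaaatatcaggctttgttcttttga
Among these windows that of Fzd1 alone held a match to CTTTGA. None held the STAT letters TTCNNNGAA or the same triplets spaced by 4 bases. The paper defines STAT3 sites by a common sequence that fixes fewer letters and also allows closer spacing. In the Necdin site for which it reports STAT3 binding, the triplets lie closer together than in either pattern. That broader sequence was not searched, so whether these windows hold STAT3 sites as the paper defines them was not tested.

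The same letters were searched on both strands in the 46 windows of the 38 member genes that have one and in all 32851 windows of the table. TTCNNNGAA occurred in 1 member window (2.17%, Wnt5b), against 7.02% of all windows. TTC and GAA spaced by 4 bases occurred in 3 (6.52%, of Fzd9, Lef1 and Lgr4), against 5.85%. CTTTGA occurred in 7 (15.2%, of Dkk1, Fzd1, Gsk3b, Lef1, Ror1, Wnt11 and Wnt5b), against 13.8%, so the shares of the latter patterns in the members are close to those of all windows. Lef1 and Lgr4, which were called in v-Src cells in opposite directions, hold the identical match TTCCAGAGAA, marked in capitals, at chr3:131112541-131112790 and chr2:109917397-109917646, both on the plus strand. It begins at -131 from this start of Lef1 and at -176 from that of Lgr4. The CTTTGA match counted for Lef1 lies in the window of another Lef1 start, which is not shown.
Lef1: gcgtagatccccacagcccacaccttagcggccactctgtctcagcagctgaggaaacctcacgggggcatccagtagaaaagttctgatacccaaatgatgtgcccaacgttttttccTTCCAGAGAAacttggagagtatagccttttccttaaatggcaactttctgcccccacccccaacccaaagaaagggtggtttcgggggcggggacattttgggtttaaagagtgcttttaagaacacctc
Lgr4: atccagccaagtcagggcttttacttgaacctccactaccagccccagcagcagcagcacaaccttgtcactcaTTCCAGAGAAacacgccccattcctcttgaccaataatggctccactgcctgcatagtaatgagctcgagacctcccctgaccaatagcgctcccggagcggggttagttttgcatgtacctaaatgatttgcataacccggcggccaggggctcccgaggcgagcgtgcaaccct
A match describes letters and not a bound site, and its absence concerns only this window and the patterns searched.

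Among the effectors inside the cell, 8 genes with 25 probesets were measured, and 22 of these probesets lay above the array median in at least 1 line. In v-Src cells 6 rose and 6 fell (24% each, against 8.75% and 8.1% of all probesets). In STAT3-C cells 1 rose and 5 fell (4% and 20%, against 9.68% and 8.58%). Gsk3b supplied 3 of the higher and 1 of the lower probesets in v-Src cells. Tcf7l2, a DNA-binding partner of beta-catenin, read 9.56, 9.24 and 9.34 on the control arrays, 6.49, 6.32 and 6.32 on the v-Src arrays and 6.51, 6.41 and 6.55 on the STAT3-C arrays by probeset 1429428_at. The transfected lines overlapped with each other and lay far below control. The log2 difference was -3.00 (SE 0.11, adjusted p = 5.56e-06, limma) in v-Src and -2.89 (SE 0.11, adjusted p = 1.73e-06) in STAT3-C cells, and 1429427_s_at gave -2.70 and -2.74. The other Tcf7l2 probesets moved less, with -0.59 and -0.54 by 1425229_a_at, called in v-Src cells alone and lost there without v-Src array 6 or control array 1 or 3 (-0.53 at the smallest). By 1426639_a_at the differences were -0.29 and -0.36, uncalled. Which transcripts of the gene each probeset reports was not examined. Tcf7l1, a family member best known as a repressor, fell in both lines, with -1.38 (SE 0.09) and -0.92 (SE 0.20) by 1450117_at. By 1436207_at the differences were -0.65 and -0.59 (adjusted p = 0.0151 and 0.0157, limma), calls lost without v-Src array 5 or 6, without STAT3-C array 1 or 3, and in both lines without control array 1 (-0.51 and -0.45).

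Ctnnb1, which encodes beta-catenin, rose in v-Src cells. Its probeset 1430533_a_at read 9.57, 9.38 and 9.88 on the control arrays, 10.75, 11.16 and 11.19 on the v-Src arrays and 10.12, 10.13 and 10.06 on the STAT3-C arrays. The v-Src arrays were the highest and the STAT3-C arrays lay between them and control. The log2 difference was 1.42 (SE 0.17, adjusted p = 0.000827, limma) in v-Src cells and 0.49 (SE 0.13, adjusted p = 0.0243) in STAT3-C cells, the latter under the fold threshold except without control array 3, which gave 0.63. By 1450008_a_at the difference was 0.73 (SE 0.11) in v-Src and 0.00 (SE 0.11) in STAT3-C cells. The probeset 1420811_a_at read between 12.33 and 12.85 over the 9 arrays and differed by 0.29 and 0.14, uncalled. Axin1, the scaffold of the destruction complex, was uncalled by both probesets, with differences between -0.37 and 0.14. Axin2, a scaffold that is also a textbook target of the pathway, differed by -0.01 (95% interval from -0.22 to 0.19) in v-Src and 0.00 (from -0.21 to 0.22) in STAT3-C cells by 1436845_at. Its control arrays read 6.90, 6.68 and 6.76, and both transfected lines overlapped with them.

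Gsk3b, which encodes a kinase that marks beta-catenin for degradation, was measured by 6 probesets that disagreed. Its probeset 1437001_at read 9.30, 9.14 and 9.34 on the control arrays, 9.99, 10.13 and 10.18 on the v-Src arrays and 7.85, 8.12 and 9.05 on the STAT3-C arrays. The v-Src arrays lay above control and the STAT3-C arrays below, STAT3-C array 3 only slightly. The log2 difference was 0.84 (SE 0.09, adjusted p = 0.000576, limma) in v-Src and -0.92 (SE 0.27, adjusted p = 0.0359) in STAT3-C cells. The STAT3-C call was lost when any of the 3 control arrays or STAT3-C array 1 or 2 was left out, with differences from -0.68 to -0.98 and adjusted p between 0.0621 and 0.123. The probesets 1451020_at and 1454958_at rose in v-Src cells too, by 0.99 (SE 0.11) and 0.69 (SE 0.08), and stood at 0.44 and 0.21 in STAT3-C cells without a call. By contrast, 1434439_at fell by 0.64 (SE 0.13) in v-Src cells, a call lost without v-Src array 5 (-0.50). The remaining probesets, 1439931_at and 1439949_at, were uncalled against control.

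Apc, the tumor suppressor of the destruction complex, rose in STAT3-C cells by 1435543_at. This probeset read 7.76, 7.0 and 7.46 on the control arrays, 7.88, 7.93 and 8.35 on the v-Src arrays and 8.48, 8.55 and 8.27 on the STAT3-C arrays. In STAT3-C cells the log2 difference was 1.03 (SE 0.18, adjusted p = 0.00389, limma). In v-Src cells it was 0.65 (SE 0.21, adjusted p = 0.0575), which was called under SAM, trended robust eBayes, the fit of all 9 arrays, the filter on level and without control array 1 (0.82), and the lines differed by -0.38 with a 95% interval from -0.71 to -0.05, uncalled. The other Apc probesets were uncalled in both lines, with differences between -0.34 and 0.63. Lef1, a partner of beta-catenin, rose in v-Src cells by 0.64 (SE 0.11) by the dim probeset 1421299_a_at, from a control level below the lower quartile. This call was lost without v-Src array 5 (0.54) or control array 3 (0.57). The brighter 1454734_at read 6.93, 6.93 and 6.86 in control, 7.15, 7.25 and 7.38 in v-Src and 6.47, 6.50 and 6.52 in STAT3-C cells. The 3 lines did not overlap by that probeset, yet its differences from control of 0.35 and -0.41 were under the fold threshold.

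**Figure D3:**
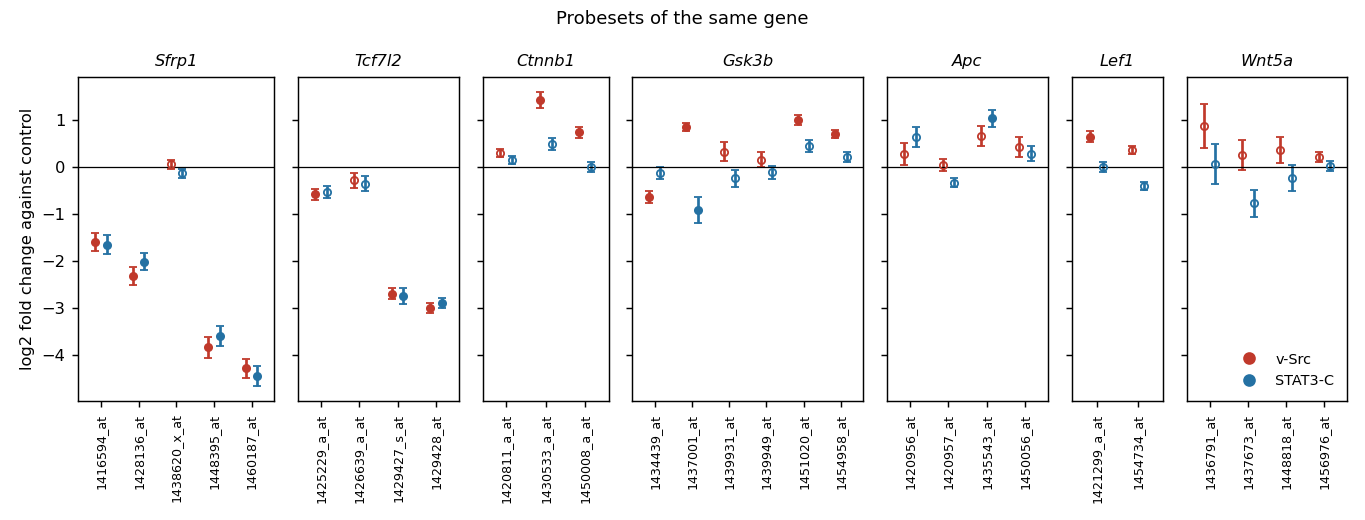
Log2 difference from control (points) with its standard error from limma (bars) in v-Src (red) and STAT3-C (blue) cells. Shown is every probeset of Sfrp1, Tcf7l2, Ctnnb1, Gsk3b, Apc, Lef1 and Wnt5a, chosen as examples among the WNT genes measured by several probesets. Filled points are called and open points are not, and the probesets of Sfrp1 range from 0.05 to -4.28 and those of Gsk3b from -0.64 to 0.99 in v-Src cells.

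Disagreement between probesets was common. Of the 60 genes, 20 had 1 probeset and 40 had several, and among the latter some but not all probesets were called for 15 genes in v-Src and 13 in STAT3-C cells. With 1 probeset a gene, the one of the highest mean level, 12 genes were lower and 3 higher in v-Src cells, where 10.4% and 9.54% of all genes were, and 8 were lower and 1 higher in STAT3-C cells, where 10.3% and 11.9% were. At that level the lower calls in STAT3-C cells are near the background. The plot of probesets of the same gene gives examples.

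Of the 19 ligand genes with 32 probesets, 9 probesets of 8 genes lay above the array median in at least 1 line. Wnt6 was the ligand that fell. By probeset 1435980_x_at it read 6.45, 6.37 and 6.62 in control, 5.65, 5.54 and 5.23 in v-Src and 5.41, 5.36 and 5.58 in STAT3-C cells, with log2 differences of -1.01 (SE 0.13) and -1.03 (SE 0.11). Its other probeset, 1419708_at, was uncalled at 0.12 and 0.27. The called probeset has an x in its name, as the uncalled one of Sfrp1 does, so this fall is uncertain. Wnt10a, the neighbour of Wnt6 on chromosome 1, was uncalled at 0.21 and 0.25. Wnt7a rose in STAT3-C cells by 0.70 (SE 0.12, adjusted p = 0.00363, limma) by 1458334_at, at levels below the lower quartile, and was uncalled by its brighter probeset 1447647_at at 0.37. Porcn, the acyltransferase that attaches the lipid WNT ligands need for secretion, read 7.08, 7.25 and 6.82 on the control arrays, 8.67, 7.73 and 8.80 on the v-Src arrays and 8.29, 7.92 and 6.81 on the STAT3-C arrays. It rose by 1.35 (SE 0.28, adjusted p = 0.0103, limma) in v-Src cells. In STAT3-C cells the difference of 0.62 (SE 0.34, adjusted p = 0.213) was uncalled and its array 3 read like control. Without that array it was 1.06, with an adjusted p of 0.00503.

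Wnt5a, a ligand known for signaling without beta-catenin, varied widely in control cells. Its probeset 1436791_at read 6.02, 6.40 and 7.89 on the control arrays, 7.86, 7.14 and 7.91 on the v-Src arrays and 7.05, 6.88 and 6.55 on the STAT3-C arrays. Control array 3 lay among the v-Src arrays. The difference of v-Src from control, 0.87 (SE 0.47, adjusted p = 0.217, limma), was uncalled with it and 1.43 (adjusted p = 0.0147) without it. The probeset 1437673_at lay below the array median in all 3 lines, and its STAT3-C mean of 4.51 lay below the lower quartile. By 1437673_at the control arrays read 4.94, 4.88 and 6.05, with array 3 again the highest. STAT3-C cells differed from control by -0.78 (SE 0.29, adjusted p = 0.0818). SAM called this Wnt5a difference, as did limma with the replicate number as a block, but limma without the block called no Wnt5a probeset against control on all arrays.

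Between the transfected lines, 7 member probesets (5.6%) were higher with v-Src, where 4.99% of all probesets were, and 2 (1.6%) were lower, where 5.33% were. With 1 probeset a gene, 2 genes were higher and 0 lower, where 4.84% and 6.83% of all genes were, and at an unadjusted p under 0.05 limma passed 38 member probesets (30.4%), against 33.9% of all probesets. The arrays of these lines did not overlap for 51 member probesets (40.8%), against 37.7% of all probesets. Both shares of higher and of non-overlapping probesets were near those of all probesets. The authors' methods describe separate RMA runs for each transfected line with the control arrays, and if the deposited columns come from them, run and line cannot be told apart in this comparison. In that case 1 of the comparisons with control also crosses runs, and which one is not known.

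Higher in v-Src cells were Gsk3b by 1437001_at, with 1.76 (SE 0.28, adjusted p = 0.00539, limma), Ctnnb1 by 1430533_a_at and 1450008_a_at, Lef1 by 1454734_at and 1421299_a_at, and Wnt5a by 1437673_at and 1436791_at. The Ctnnb1 difference was 0.93 (SE 0.12, adjusted p = 0.00283) and 0.73 (SE 0.10, adjusted p = 0.00296) on the log2 scale. That of Lef1 was 0.76 (SE 0.08, adjusted p = 0.00141) and 0.64 (SE 0.10, adjusted p = 0.00563), the latter lost without v-Src array 5 (0.55). For Wnt5a it was 1.03 (SE 0.18, adjusted p = 0.007) and 0.81 (SE 0.22, adjusted p = 0.0409). The 1.03 comes from a dim probeset, below the array median in all 3 lines and below the lower quartile in STAT3-C cells. The 0.81 of Wnt5a lost its call when v-Src array 1 or 6 or any 1 STAT3-C array was left out, with differences from 0.67 to 0.92 and adjusted p up to 0.136, and it had an adjusted p of 0.205 with all 9 arrays in 1 fit. Lower in v-Src cells were Fzd2, as given above, and Wnt7a by 1458334_at, with -0.59 (SE 0.11, adjusted p = 0.0108). The Wnt7a call was lost without v-Src array 6 or STAT3-C array 1 or 3.

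For the genes that fell furthest in both lines, the direct difference was uncalled. Its 95% interval ran from -0.28 to 0.11 for Fzd1 (1437284_at), from -0.31 to 0.09 for Tcf7l2 (1429428_at) and from -0.41 to 0.17 for Lgr5 (1450988_at). Of Sfrp1, 1428136_at differed by -0.30 (interval from -0.50 to -0.09) and 1448395_at by -0.25 (from -0.42 to -0.07), uncalled although their arrays did not overlap. The v-Src mean of 1448395_at, 5.11, lay below the lower quartile, so background limits that difference. Sfrp2, Dkk2 and Sfrp1 1460187_at lay below the lower quartile in both lines, so no difference between the lines could be read from them. Rspo2 (1455893_at) was higher on every v-Src than on every STAT3-C array, with an interval from 0.05 to 0.64 and an adjusted p of 0.101 from limma, uncalled. Its STAT3-C mean of 4.88 lay below the lower quartile, so background limits this difference too. These results do not show that the lines are alike.

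**Figure D4:**
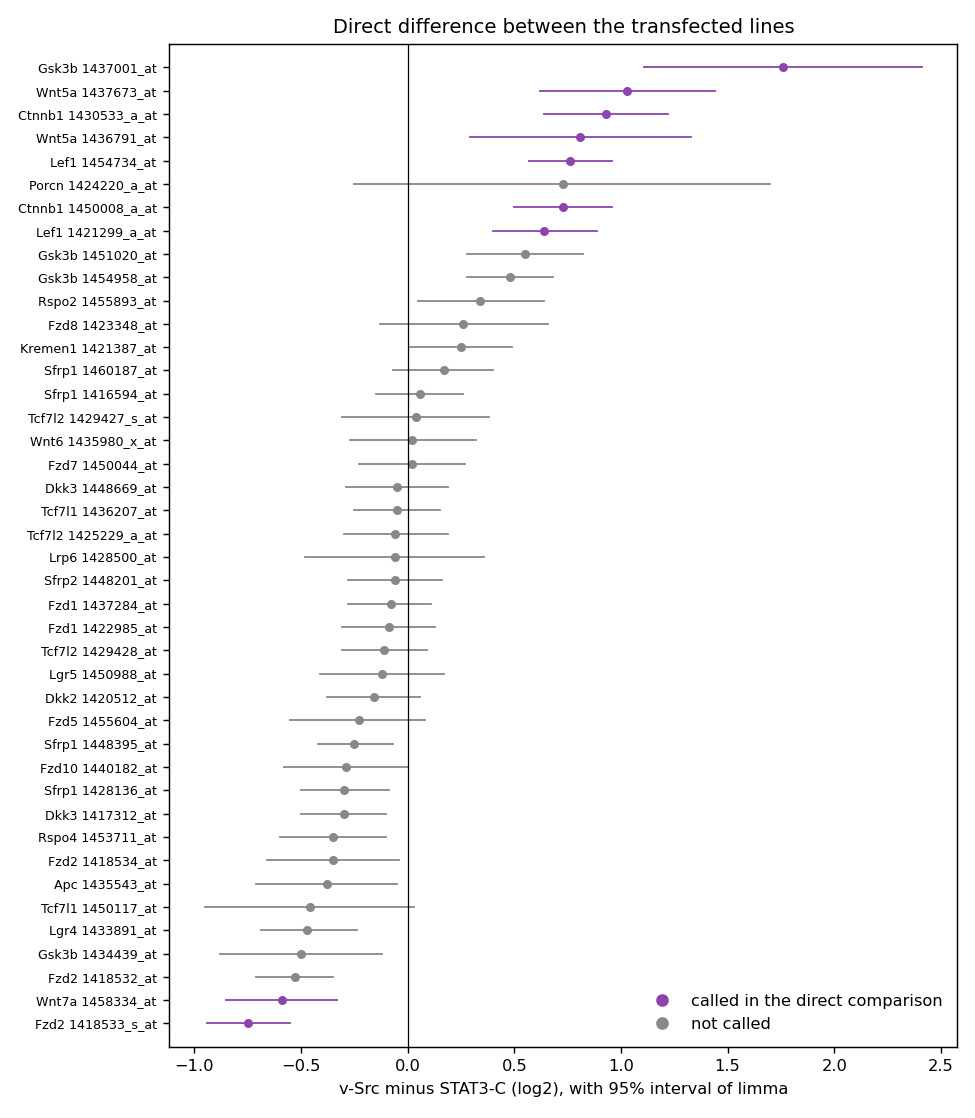
Log2 difference between v-Src and STAT3-C cells (horizontal axis, v-Src minus STAT3-C) with the 95% interval of limma for each WNT probeset called in any of the 3 comparisons. Purple marks differences that were called, from Gsk3b at 1.76 to Fzd2 at -0.75. The genes that fell furthest in both lines were uncalled, from Sfrp1 (1428136_at) at -0.30 to Rspo2 at 0.34, and some of their intervals exclude 0.

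Other genes of the pathway were listed by role, with 1 probeset a gene. Among 17 genes of ligand secretion and surface modulation, 4 fell in both lines and 1 rose, beside 10.4% lower and 9.54% higher of all genes in v-Src and 10.3% and 11.9% in STAT3-C cells, which also hold for the lists that follow. The 4 were Ptk7, a co-receptor of the polarity branch, with log2 differences of -2.66 and -2.30, Gpc4, a glypican, with -1.82 and -1.77, Wls, the carrier that brings WNT ligands to the surface, with -1.85 and -0.97, and Ryk, a WNT receptor, with -0.78 and -0.79. Wls differed between the transfected lines too, lower with v-Src, by -0.89 (SE 0.19, adjusted p = 0.0173, limma). Znrf3, a ligase that removes frizzled receptors, rose by 0.75 and 0.98. The median log2 difference of the list was -0.10 in v-Src and -0.12 in STAT3-C cells, beside 0.02 and 0.04 over all genes.

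Of 26 genes of the destruction complex and signal relay, 2 rose and 2 fell in v-Src cells and 3 rose and 7 fell in STAT3-C cells. Tnks2, a tankyrase that turns over Axin, fell, with -0.77 and -1.54, and Ctnnbip1, an inhibitor of the beta-catenin and TCF complex, rose by 0.77 and 1.56 in the same order. Of 17 nuclear cofactors, 5 fell in v-Src and 4 in STAT3-C cells, among them the Groucho-type corepressors Tle4, with -2.03 and -1.56, and Tle2, with -1.02 and -0.98, and the related Tle5, with -1.25 and -1.51. Tle1, at 0.27 and 0.14, and Tle3, at 0.09 and 0.05, were uncalled. The other called cofactors lie outside the Tle family: Crebbp (-0.90) and Hdac1 (-0.70) in v-Src cells and Bcl9l (-0.78) in STAT3-C cells. Of 25 genes of the polarity and calcium branch, 2 rose and 4 fell in each line. Daam2, a formin that binds Dishevelled, fell, with -2.14 and -2.03, as did Nfatc4, a calcium-regulated factor, with -1.49 and -1.82. Prickle2, a polarity protein, rose by 1.04 in v-Src cells alone by the call, and the direct difference of 1.14 (SE 0.15, adjusted p = 0.00277, limma) was called as well.

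Genes known as targets of beta-catenin and TCF moved both ways. Of 29 measured, 7 rose and 2 fell in v-Src cells and 7 rose and 5 fell in STAT3-C cells. Plaur, the urokinase receptor, rose by 2.51 and 1.38, Id2, an inhibitor of helix-loop-helix factors, by 2.11 and 3.04, Fosl1, an AP-1 subunit, by 1.82 and 1.24, and Ccnd1, cyclin D1, by 1.03 and 1.20. Jag1, a Notch ligand, rose by 2.04 in STAT3-C cells. Ccn5, a matricellular protein, fell, with -2.55 and -1.64. Tbx3, a T-box repressor, rose by 1.04 in v-Src and fell by 0.67 in STAT3-C cells. Many of these genes have other known regulators, and the median log2 difference of the list was 0.11 and 0.20 beside 0.02 and 0.04 over all genes.

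**Figure D5:**
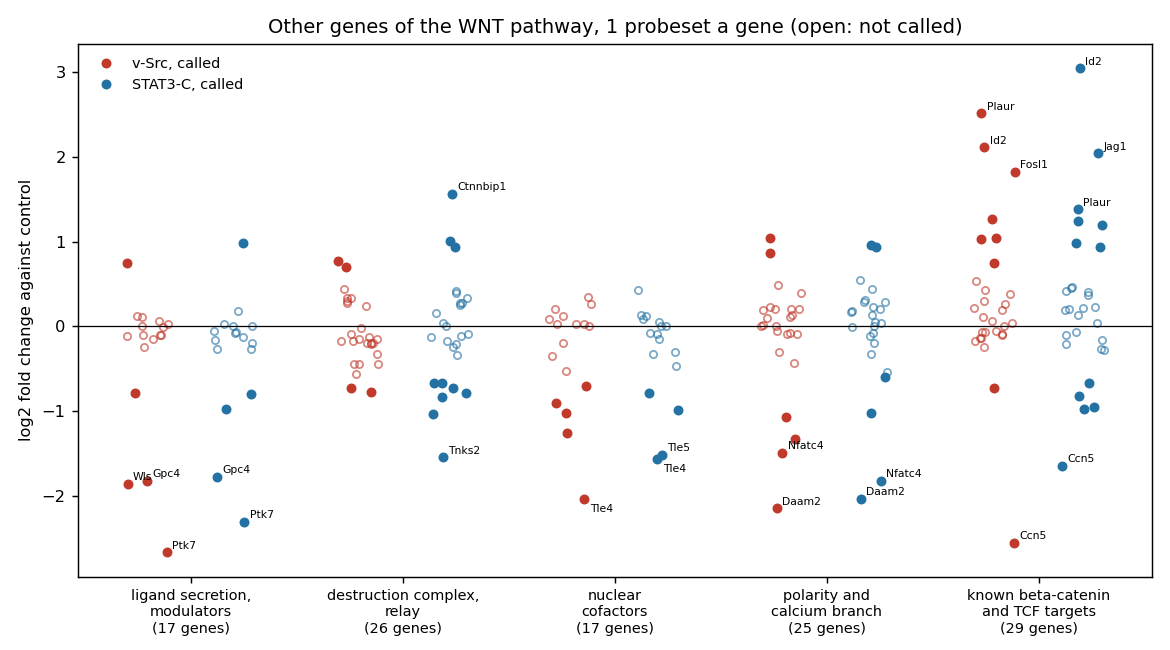
Log2 difference from control of the other WNT pathway genes (1 probeset a gene) in v-Src (red) and STAT3-C (blue) cells, by list, with filled points for called and open points for uncalled genes. The nuclear cofactors have called points below 0 only, while the target list spreads from Ccn5 at -2.55 to Id2 at 3.04.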

How the data were processed

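RNA of 3 control, 3 v-Src and 3 STAT3-C arrays was measured on Affymetrix mouse arrays. The authors normalized the arrays by RMA, with no version given in the sources used here, and the deposited values are log2 expression. Their methods describe normalizing the control arrays once with each transfected line, and the table does not say which run its control columns come from. The 64 control probesets were left out and 45037 were tested, with no filter on level. Arrays have no read depth, and their number limits the precision.

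Each comparison was fitted on its 6 arrays by limma 3.58.1 (lmFit and eBayes) in R 4.3.3, with Benjamini-Hochberg adjustment over all probesets. SAM, the test of the study, was run over 20 groupings at q under 5%. Genes were named from a platform table that gives 1 symbol to 34945 probesets, several to 932 and none to 9160, 34741 of them matched to RefSeq (GRCm38.p6) through their gene number. Probeset positions were not used here.

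Members, gene lists, named genes and tests were chosen with earlier results of these data known. Named are members with a called probeset above the array median, all antagonists, R-spondins, LGR receptors, co-receptors and effectors, up to 4 called genes a line of each other list, and Stat3 and Src. Fzd3, Fzd4, Fzd6, Fzd9, Fzd10os, Wnt2, Wnt6, Wnt7a, Wnt10a, Prickle2, Tbx3, Ccnd1, Tle1, Tle3, Hdac1 and the cell type markers given with values were named after seeing their values where the rule did not. Motifs were searched in 250 bases before each RefSeq start.

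On simulated data with known changes, limma recovered 90%, 98% and 95% of the probesets changed 2-fold (v-Src, STAT3-C and direct comparison, in that order) and 100% of those changed 4-fold, with 12, 9 and 10 false calls of 45037. The alternatives comprised 1 fit over all 9 arrays, further quantile normalization or centring on the median, a filter on level, other thresholds of fold (2 or none) and adjusted p (0.01), SAM, a trended robust eBayes, each array left out, the replicate number as a block, and gene-level summaries. Figures were drawn with matplotlib 3.10.9 in python 3.11.15.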

Additional observations from a re-analysis of the deposited data

Results flagged for a closer look

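The effects of v-Src and STAT3-C differed for the following probesets of 6 WNT genes by the test of the direct difference (limma, v-Src minus STAT3-C on the log2 scale), and these values are given without an explanation. The kinase gene Gsk3b differed by 1.76 by 1437001_at, the beta-catenin gene Ctnnb1 by 0.93 by 1430533_a_at and by 0.73 by 1450008_a_at, and Lef1 by 0.76 by 1454734_at and by 0.64 by 1421299_a_at. The ligand Wnt5a differed by 1.03 by 1437673_at, where the STAT3-C mean lay below the lower quartile, and by 0.81 by 1436791_at. The receptor Fzd2 differed by -0.75 by 1418533_s_at and the ligand Wnt7a by -0.59 by 1458334_at. Of these, the Gsk3b probeset was called in opposite directions against control.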

How the results depend on the processing

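No called value of a WNT probeset changed direction under any alternative. Of 72 called values, 71 kept their call with all 9 arrays in 1 fit, 72 after quantile normalization again, 70 after median centring, 72 under SAM, 72 with trend and robust, 64 at an adjusted p under 0.01 and 45 at a fold of at least 2. The filter on level kept 51 of 51 that could be tried. The filter on level left 20 lower probesets in v-Src cells, 16 in STAT3-C cells and 15 in both. Calls were also gained, among them Apc 1435543_at in v-Src cells and, under SAM, Wnt5a 1437673_at in STAT3-C cells. The 9 higher probesets in v-Src cells became 4 at a fold of 2, and as genes 3 by 1 probeset and 3 by the mean of probesets. The 28 lower became 12 and 12 as genes. In STAT3-C cells the 4 higher became 1 at a fold of 2, 9 without a fold threshold, and 1 and 0 as genes, and the 22 lower became 8 and 11 as genes. In the direct comparison the 7 higher became 2 at a fold of 2, 11 without one, and 2 and 3 as genes. The 2 lower became 1 with the filter, 0 at a fold of 2, 7 without one, 1 at an adjusted p under 0.01, and 0 and 0 as genes. Without v-Src array 6 or STAT3-C array 1 it was 1, and the range on leaving out each array was 1 to 2. Higher in both lines were 0 at a fold of 2, 4 without one, and 1 and 0 as genes, in place of 2, and lower in both 8 and 11 as genes in place of 21. The cause was not tested beyond the construction of these settings, since genes are fewer than probesets.

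Replicate numbers pair control with STAT3-C arrays only in name, as same-numbered arrays had correlations of deviations of -0.09, 0.06 and 0.04. With the replicate number as a block, 26 of 26 called values kept their call and 2 were gained (Apc 1420956_at and Wnt5a 1437673_at). No such block could be fitted for v-Src cells, whose arrays share only number 1 with the others. Leaving out each array kept between 31 of 35 and 62 of 63 called values. Median centring moved the median of all probesets by at most -0.07.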

Other observations

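Smaller shifts passed the adjusted p from limma but not the fold threshold. Counted at any fold, 41 member probesets (32.8%, against 28.4% of all probesets) passed an adjusted p under 0.05 in v-Src cells, 40 (32%, against 29.6%) in STAT3-C cells and 18 (14.4%, against 20.3%) in the direct comparison. Among the ligands, Wnt2 read 5.38, 5.39 and 5.25 on the control arrays, 5.45, 5.32 and 5.39 on the v-Src arrays and 5.77, 5.72 and 5.79 on the STAT3-C arrays. The STAT3-C arrays were the highest, with log2 differences of 0.42 (adjusted p = 0.00791) from control and -0.38 (adjusted p = 0.0122) for v-Src minus STAT3-C. Sfrp4, a secreted antagonist, differed by 0.44 (adjusted p = 0.0197) in STAT3-C and by 0.15 in v-Src cells. Fzd4, a receptor, differed by 0.46 (adjusted p = 0.0274) in v-Src and 0.14 in STAT3-C cells by 1434756_at. Ror1, a co-receptor of the polarity branch, differed between the transfected lines by -0.43 (adjusted p = 0.0114) by 1451014_at.

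STAT3-C array 3 lay apart from the other arrays of its line for several members. It read 9.05 for Gsk3b by 1437001_at, where the others read 7.85 and 8.12, and 6.81 for Porcn, where they read 8.29 and 7.92. It read 7.11 for Tcf7l1 by 1450117_at, where they read 7.79 and 7.96. The Stat3 probeset 1460700_at read 9.30 on that array and 9.85 and 9.86 on the others.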
